A study of Arabidopsis thaliana with 18 samples.

Results

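miR395 is the Arabidopsis microRNA (miRNA) family of sulfate assimilation, and its 6 members, miR395a to miR395f, were followed in seedlings under heat stress (HS) and recovery. The members were taken by name from a table of 422 mature miRNAs, and all 6 were found. Their rows hold only 2 distinct sequences, so the rows of identical sequence were summed into miR395a/d/e and miR395b/c/f, which are 2 of the 345 distinct sequences of the table. The material was 7-day-old seedlings of Arabidopsis thaliana Col-0, the common laboratory accession, with no mutation or transgene named in the labels. Seedlings were kept as control, exposed to 37°C for 1 h (HS), or given 2 h at 22°C after HS (recovery). Each condition was sequenced as small RNA from AGO1-IP, the RNA bound to ARGONAUTE1 (AGO1) after immunoprecipitation with an antibody to the protein, and from total RNA. With 3 biological replicates in each of the 6 groups there were 18 libraries. They held 1374777 to 5745126 miRNA reads in AGO1-IP and 321918 to 1059362 in total RNA. The question of the design is whether a short HS changes how much of a miRNA is present and how much of it is bound by AGO1.

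miR395 is known as the guide that plants make when sulfate is scarce. Bound to AGO1, it directs cleavage of the mRNAs of ATP sulfurylases (APS), the enzymes that activate sulfate for assimilation, and of the sulfate transporter SULTR2;1, which serves the passage of sulfate from root to shoot. In sulfate-fed plants the family is usually at low levels. AGO1 is the main effector of miRNA silencing and is known to prefer small RNAs that begin with U.

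The 2 mature sequences are shown because every result below turns on the base that separates them. They are written 5′ to 3′ as read from the TAIR10.1 genome at the RefSeq coordinates of the mature miRNAs, with the seed, bases 2 to 8, in capitals.
miR395a/d/e: cUGAAGUGuuugggggaacuc
miR395b/c/f: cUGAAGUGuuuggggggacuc
Both are 21 nt long and begin with C, and they differ by the single substitution A17G, where the base of miR395a/d/e comes first and positions are counted from the 5′ end. No other listed miRNA carries this seed (0 outside the family), and the nearest one differs at 11 positions.

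All 6 loci lie on chromosome 1 in 2 clusters (TAIR10.1 coordinates of the mature strand). The first cluster, 3964 bp long, holds miR395a (AT1G26973, 9363206 to 9363226, minus strand), miR395b (AT1G26975, 9364540 to 9364560, plus strand) and miR395c (AT1G26985, 9367149 to 9367169, plus strand). The second, 3971 bp long, holds miR395d (AT1G69792, 26269989 to 26270009, minus strand), miR395e (AT1G69795, 26272786 to 26272806, minus strand) and miR395f (AT1G69797, 26273939 to 26273959, plus strand). Thus each cluster carries both sequences, and the minus-strand loci carry the miR395a/d/e sequence while the plus-strand loci carry that of miR395b/c/f. The precursors annotated around them are 93 to 112 nt long. Each mature sequence matched the genome at 3 places, its own 3 loci and no others.

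The sites in the known target genes are shown to place base 17 in the pairing. They are DNA, 5′ to 3′ along the mRNA, with bases that form Watson-Crick pairs with miR395a/d/e in capitals.
APS1: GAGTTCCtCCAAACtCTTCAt
APS3: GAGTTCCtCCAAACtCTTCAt
APS4: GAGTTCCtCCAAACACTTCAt
SULTR2;1: aAGTTCtCCCAAACACTTCAa
All 4 sites lie in coding sequence. They are at 8113164 to 8113184 on chromosome 3 (APS1, AT3G22890, plus strand), 8414958 to 8414978 on chromosome 4 (APS3, AT4G14680, minus strand), 17591121 to 17591141 on chromosome 5 (APS4, AT5G43780, minus strand) and 3193268 to 3193288 on chromosome 5 (SULTR2;1, AT5G10180, plus strand). Against miR395a/d/e, the APS4 site left 2 bases unpaired and each of the other three left 3, of which 1 at every site was a G:U pair. Against miR395b/c/f every site had 1 more unpaired base, the G:U pair opposite base 17. In APS2 (AT1G19920), the fourth ATP sulfurylase gene, the best stretch for miR395a/d/e left 8 bases unpaired. The best for miR395b/c/f was a different stretch of that gene and left 9. These are sequence matches, and no cleavage was measured here.

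The deposited counts gave each copy close to an equal part of its sequence. Over the 18 libraries the median share was 33.1% for miR395a, 33.8% for miR395d and 32.8% for miR395e of the miR395a/d/e reads. It was 34.1% for miR395b, 32.9% for miR395c and 33.1% for miR395f of the miR395b/c/f reads. Single libraries ranged from 30.5 to 38.0% in the first sequence and from 26.4 to 40.8% in the second, where the widest values came from total RNA rows with few reads. Reads of identical sequence cannot be assigned to a locus, so the 6 rows do not measure 6 loci. They measure 2 sequences, and the levels below are of the sums.

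**Figure D1:**
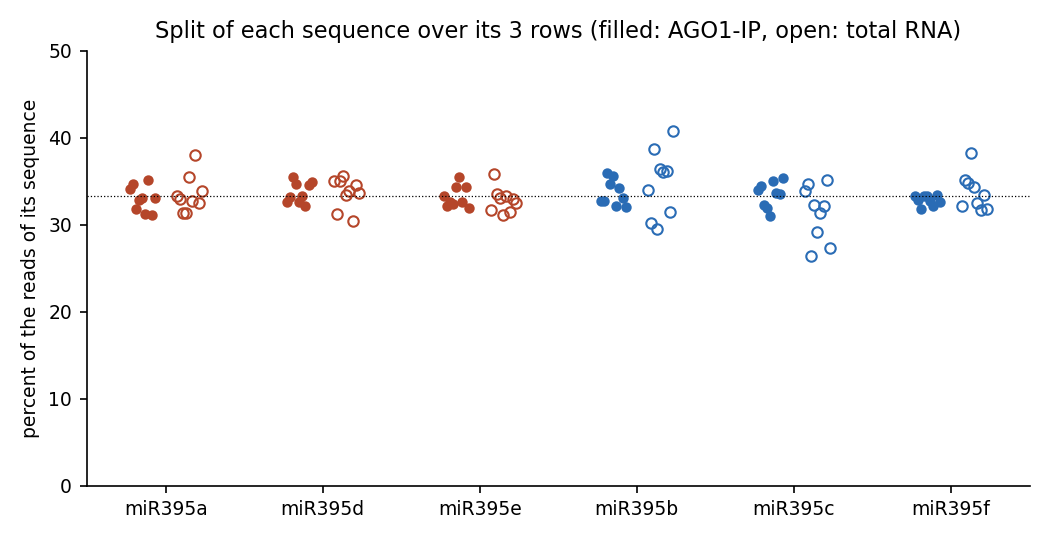
Percent of the reads of each sequence that the deposited table gives to each of its 3 rows, by library (filled points, AGO1-IP; open points, total RNA; dotted line, an equal part). Medians lie between 32.8 and 34.1%, and the highest and lowest points, 40.8 and 26.4%, are for miR395b and miR395c in total RNA.

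In all libraries together the family had 38999 reads, 19986 of miR395a/d/e and 19013 of miR395b/c/f. The family took 0.0653 to 0.172% of the miRNA reads in AGO1-IP libraries and 0.0818 to 0.238% in total RNA libraries. Among the 345 sequences, miR395a/d/e ranked between 38 and 51 by reads in AGO1-IP and between 42 and 67 in total RNA, and miR395b/c/f between 37 and 59 and between 50 and 74. A sum had 221 to 4680 reads in a library, which gives 95% Wilson intervals of 2.86 to 13.2% of the value on either side. These intervals cover counting error only, since PCR reads without molecular identifiers are not independent molecules. Levels are given as CPM, reads per 1000000 miRNA reads of the library.

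In AGO1-IP, miR395a/d/e had 522, 414 and 581 CPM in control replicates 1, 2 and 3, 410, 348 and 476 CPM in HS, and 843, 463 and 555 CPM in recovery. miR395b/c/f had 815, 395.3 and 458 CPM in control, 418, 305 and 280 CPM in HS, and 879, 397 and 452 CPM in recovery. For both sequences each HS library was below the control and the recovery library of the same number, while the ranges of the 3 conditions overlapped. Replicate 1 stood highest in each condition for miR395b/c/f, at 815 and 879 CPM in control and recovery.

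In total RNA, miR395a/d/e had 968, 683 and 467 CPM in control, 1457, 1187 and 732 CPM in HS, and 831, 697 and 668 CPM in recovery. miR395b/c/f had 1132, 550 and 351 CPM in control, 926, 591 and 346 CPM in HS, and 629, 486 and 451 CPM in recovery. Here each HS library was above the control and the recovery library of its number for miR395a/d/e, and for miR395b/c/f only HS replicate 2 was above its control. Within every total RNA group replicate 1 was highest and replicate 3 lowest for both sequences, so the spread followed the replicate number. In whole seedlings, fewer cells with a miRNA and less of it per cell cannot be told apart.

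Groups are summarised by their means. miR395a/d/e averaged 506 ± 84.5, 411 ± 63.8 and 620 ± 198 CPM in control, HS and recovery AGO1-IP, and 706 ± 251, 1125 ± 366 and 732 ± 86.7 CPM in control, HS and recovery total RNA (SD, n = 3 each). miR395b/c/f averaged 556 ± 226, 334 ± 73.4 and 576 ± 264 CPM in AGO1-IP, and 678 ± 406, 621 ± 291 and 522 ± 94.1 CPM in total RNA, in the same order of conditions. In descending order of means, the groups of miR395a/d/e ran HS, recovery and control in total RNA, then recovery, control and HS in AGO1-IP. Neighbours in this order overlapped in range. For miR395b/c/f the order was control and HS in total RNA, recovery and control in AGO1-IP, recovery in total RNA and HS in AGO1-IP, and of the neighbours only the last pair did not overlap (280 to 418 CPM in HS AGO1-IP, 451 to 629 CPM in recovery total RNA). Between the kinds of library within 1 condition, only miR395a/d/e in HS did not overlap, of the 2 miR395 sequences. It had 348 to 476 CPM in AGO1-IP and 732 to 1457 CPM in total RNA. How many other sequences did not overlap was not counted. Without a scaling factor, as in CPM, edgeR called 119 of 213 sequences lower in HS AGO1-IP than in HS total RNA. The median log2 fold change of the 213 was −1.92, and miR395a/d/e stood above it at −1.45. The order of CPM across the 2 kinds of library rests on this scaling, so it does not measure binding by AGO1.

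**Figure D2:**
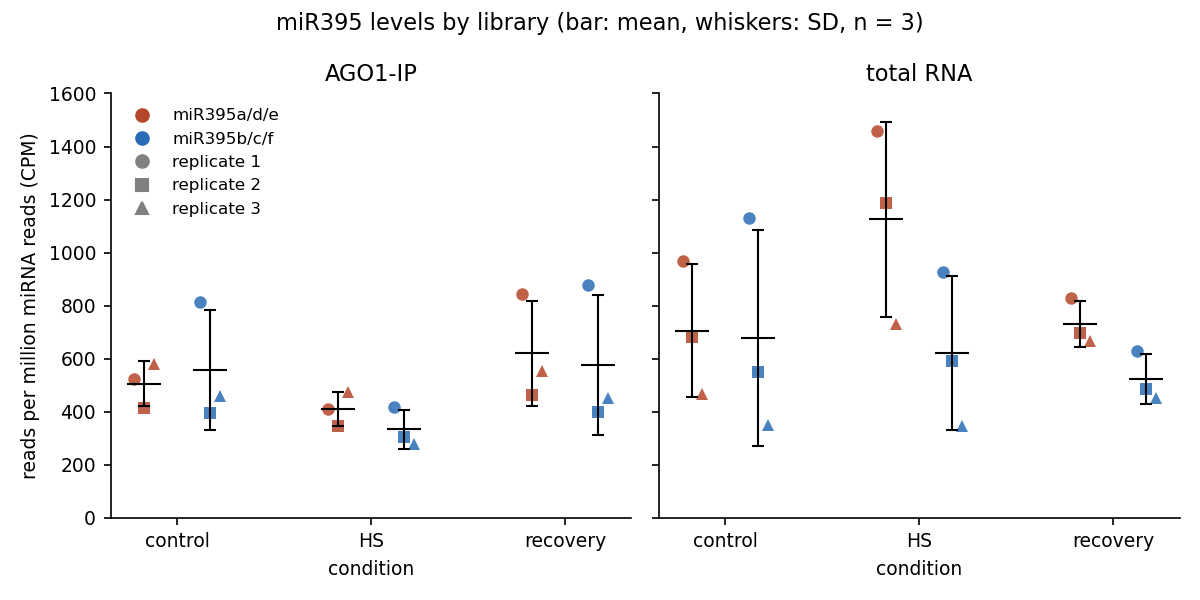
CPM of miR395a/d/e and miR395b/c/f in each library by condition, AGO1-IP on the left and total RNA on the right, with the mean (bar) and SD (whiskers) of 3 libraries. HS has the lowest means in AGO1-IP (411 and 334 CPM) and, for miR395a/d/e, the highest in total RNA (1125 CPM), with ranges that overlap between conditions.

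Neither sequence passed the test between conditions in total RNA. HS against control gave a log2 fold change of 0.59 ± 0.35 for miR395a/d/e (SE, edgeR quasi-likelihood adjusted p = 0.510) and of −0.19 ± 0.45 for miR395b/c/f (adjusted p = 0.815), with 1 of 182 sequences (0.549%) called at 0.05. The 95% intervals, −0.19 to 1.36 and −1.18 to 0.79, leave room for a change of more than 1 log2 unit in either sequence. Recovery against control gave −0.01 ± 0.35 and −0.42 ± 0.45 (edgeR adjusted p = 0.996 for both). Recovery against HS gave −0.59 ± 0.35 (adjusted p = 0.889) and −0.22 ± 0.45 (adjusted p = 0.893). In each of these 2 comparisons edgeR called 0 of 182 sequences (0%), and 5 and 6 had an unadjusted edgeR p under 0.05. DESeq2 also called 0 in both. With the replicate number as a block edgeR called 21 sequences in HS against control, 2 in recovery against control and 5 in recovery against HS, without miR395 among them. Without 1 library at a time, HS against control in miR395a/d/e ranged from 0.24 to 0.83 with adjusted p from 0.314 to 0.766. In miR395b/c/f the direction rested on single libraries. HS against control turned to 0.22 without control replicate 1 and to 0.11 without HS replicate 3, and recovery against HS turned to 0.23 without HS replicate 1.

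Neither sequence passed between conditions in AGO1-IP. HS against control gave −0.21 ± 0.38 for miR395a/d/e and −0.53 ± 0.40 for miR395b/c/f (edgeR adjusted p = 0.999 for both), with 5 of 170 sequences (2.94%) called. The intervals were −1.01 to 0.58 and −1.36 to 0.31. Recovery against control gave 0.38 ± 0.38 and 0.22 ± 0.40 (adjusted p = 0.929 for both), with 1.18% of sequences called. The second of these turned to −0.23 without AGO1-IP recovery replicate 1. Recovery against HS gave 0.59 ± 0.39 (adjusted p = 0.988) and 0.75 ± 0.41 (adjusted p = 0.734), with 1.76% called. With the replicate block 5 and 9 sequences were called in the comparisons of recovery with control and with HS, in place of 2 and 3, and miR395 was not among them. In CPM, recovery was higher than HS in 3 of 3 numbered pairs for both sequences, by 1.51-fold and 1.72-fold of the means. Recovery replicate 1 weighed most in this, since without it the log2 fold changes were 0.26 for both sequences.

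The ratio of the 2 sequences within a library needs no library size, and in total RNA its HS and control values did not overlap. In log2 of miR395a/d/e over miR395b/c/f reads, HS replicates 1, 2 and 3 stood at 0.65, 1.00 and 1.08, against −0.23, 0.31 and 0.41 in control. All 3 HS libraries were above all 3 control libraries. The means were 0.91 ± 0.23 in HS and 0.17 ± 0.34 in control (SD, n = 3 each), a difference of 0.75 or 1.68-fold. The exact two-sided permutation test gave p = 0.1, the smallest that 3 against 3 libraries allow. Adjusted over the 7 comparisons of the ratio (Benjamini-Hochberg), this permutation p was 0.233. By replicate number the differences were 0.88, 0.69 and 0.67, with an SD of 0.115.

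Recovery lay between HS and control. Its libraries stood at 0.40, 0.52 and 0.57 (mean 0.50 ± 0.09), all below the 3 HS libraries (difference −0.42, exact permutation p = 0.1) and overlapping control (difference 0.33, exact permutation p = 0.2). Adjusted over the 7 comparisons of the ratio, these permutation p-values were 0.233 and 0.35. As geometric means there were 1.12, 1.88 and 1.41 reads of miR395a/d/e for each read of miR395b/c/f in control, HS and recovery total RNA. All 3 rows of miR395a/d/e were above all 3 rows of miR395b/c/f in 2 of 3 control, 3 of 3 HS and 3 of 3 recovery libraries. In 1 control library all were below. The rows are near-equal parts of 2 sequences, so this order only repeats the sign of the ratio and adds no evidence. By the ratio itself, the 3 HS libraries were the richest of the total RNA libraries in miR395a/d/e relative to miR395b/c/f.

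In AGO1-IP the same ratio stood at −0.64, 0.07 and 0.34 in control, −0.03, 0.19 and 0.76 in HS, and −0.06, 0.22 and 0.30 in recovery. HS was above control in 3 of 3 numbered pairs, by 0.62, 0.12 and 0.42, but the ranges overlapped. The differences were 0.39 for HS against control (exact permutation p = 0.5), 0.23 for recovery against control and −0.16 for recovery against HS (exact permutation p = 0.7 for both). The permutation test used for these 6 condition comparisons cannot go below 0.1 with 3 libraries a group. Without AGO1-IP control replicate 1 the difference of HS from control was 0.11, and without AGO1-IP HS replicate 3 it was 0.16.

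The ratio leaned more to miR395b/c/f in AGO1-IP than in total RNA. The mean log2 ratio was 0.13 over the 9 AGO1-IP libraries and 0.53 over the 9 total RNA libraries, a difference of −0.40 or 0.759-fold (exact permutation within conditions, two-sided p = 0.0198). Adjusted over the 7 comparisons of the ratio (6 between conditions and this one) the permutation p was 0.138, which does not pass. The ratio was lower in AGO1-IP in 9 of 9 pairs of the same condition and number, by −0.81 to −0.07. Within conditions the differences were −0.24 in control (exact p = 0.6), −0.60 in HS (exact p = 0.2) and −0.34 in recovery (exact p = 0.1), and only in recovery did the ranges not overlap. Without AGO1-IP control replicate 1 the difference was −0.30 (exact permutation p = 0.0548), and without total RNA control replicate 3 it was −0.36 (exact permutation p = 0.0528). In all 6 groups replicate 1 had the lowest ratio and replicate 3 the highest. The ratio thus moved with the replicate number in every group, and the 9 pairs share 3 numbers.

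**Figure D3:**
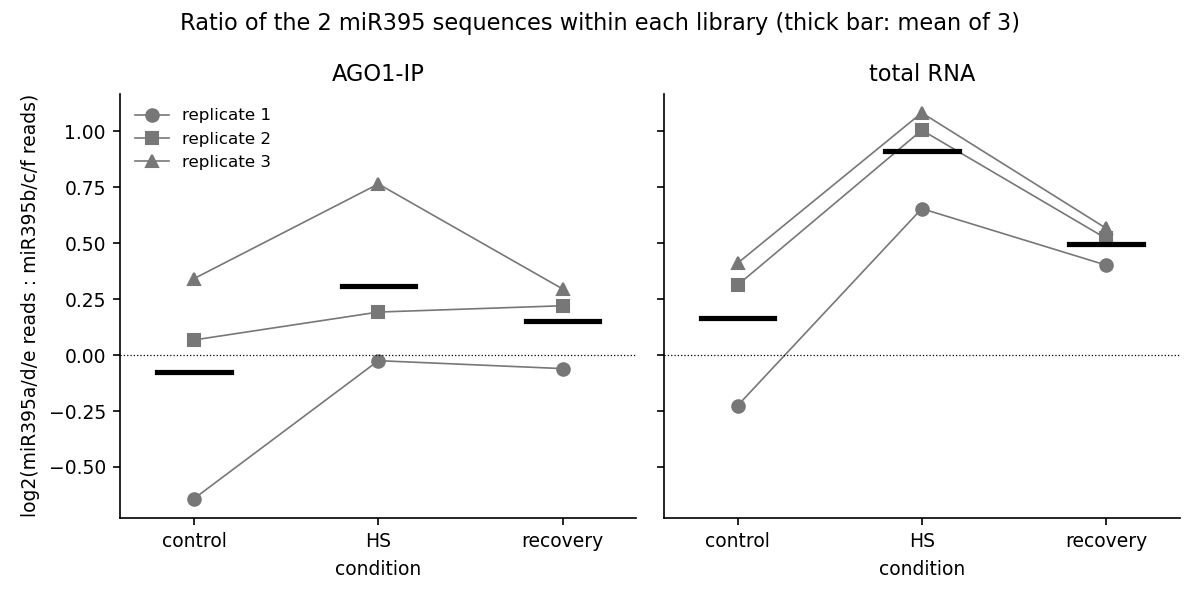
Log2 ratio of miR395a/d/e to miR395b/c/f reads in each library by condition, AGO1-IP on the left and total RNA on the right, with lines joining libraries of the same replicate number and thick bars at the mean of 3. In total RNA the 3 HS points (0.65 to 1.08) lie above the 3 control points (−0.23 to 0.41), and the 3 lines keep their order in both panels.

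How much miR395 AGO1-IP held against total RNA depended on the scaling between the 2 kinds of library. With TMM factors, control gave log2 fold changes of 1.07 ± 0.34 for miR395a/d/e (edgeR adjusted p = 0.00954) and 1.27 ± 0.43 for miR395b/c/f (adjusted p = 0.0133), and recovery gave 1.27 ± 0.34 (adjusted p = 0.00312) and 1.65 ± 0.44 (adjusted p = 0.00279). HS gave −0.08 ± 0.34 (adjusted p = 0.825) and 0.51 ± 0.43 (adjusted p = 0.295). Of 213 sequences 69.5% were called in control, 69.5% in HS and 69% in recovery, so a call here was the common outcome. Of the sequences, 35.7, 29.6 and 33.8% were called higher in AGO1-IP, and 33.8, 39.9 and 35.2% lower. All 6 deposited rows tested one by one passed in control and in recovery, and none passed in HS (0 of 6). As near-equal parts of the 2 sequences, the 6 rows repeat the tests of the sums and add no evidence. Over the deposited rows that passed the filter, 176, 179 and 172 were called in control, HS and recovery. How many of the rows were tested is not given here, so these counts are not shares of the whole table. The share to set beside the 6 rows is that of the summed sequences, 69.5, 69.5 and 69%.

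These calls did not hold under other scalings, in control as in recovery. RLE size factors gave 0.27 (adjusted p = 0.545) and 0.42 (adjusted p = 0.413) in control and 0.59 (adjusted p = 0.176) and 0.98 (adjusted p = 0.0686) in recovery. With no factor beyond the miRNA reads, miR395a/d/e turned to −0.48 in control and −0.24 in recovery, and reached −1.45 in HS (adjusted p = 0.00204). miR395b/c/f turned to −0.28 in control and −0.89 in HS and stood at 0.14 in recovery. The same change of scaling moved the median of all 213 sequences, which was 0.05, −0.48 and −0.07 in control, HS and recovery with TMM, and −1.49, −1.92 and −1.57 with no factor.

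A scaling factor multiplies a whole library, so it shifts all sequences of a comparison by nearly the same amount. The family's place against that median could therefore hardly move, and its stability is no evidence. miR395a/d/e lay above it by 1.03 with TMM, 1.13 with RLE and 1.01 with no factor in control, and miR395b/c/f by 1.23, 1.28 and 1.21. With TMM, miR395a/d/e stood at percentile 62.4 in control, 54.5 in HS and 70.0 in recovery among the sequences tested, and miR395b/c/f at 66.2, 61.5 and 76.5. In plain CPM, AGO1-IP was below total RNA in 2 of 3 control, 3 of 3 HS and 2 of 3 recovery pairs for miR395a/d/e. For miR395b/c/f this was so in 2, 3 and 1 of 3 pairs.

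Most sequences called higher in AGO1-IP with TMM begin with U (68 of 76 in control), and miR395 begins with C. Of the 345 listed sequences 193 begin with U and 32 with C. Among the 119 tested sequences with U the median log2 fold change of AGO1-IP against total RNA was 1.47 in control, 1.13 in HS and 1.23 in recovery. Among the 23 with C it was −1.62, −2.25 and −2.11. Of those 23, 6, 3 and 5 were called higher in control, HS and recovery, where 35.7, 29.6 and 33.8% of all sequences were. The 2 miR395 sequences were among them in control and in recovery but not in HS. By this fold change miR395b/c/f ranked 5, 6 and 3 of the 23 in control, HS and recovery, and miR395a/d/e 7, 8 and 5. The ranks were the same under TMM, RLE and no factor, as a factor on whole libraries leaves them almost fixed. The calls again moved with the scaling. With RLE 0, 3 and 1 of the 23 were called higher in control, HS and recovery, and with no factor 0, 2 and 1. Neither miR395 sequence was among them. The median of the sequences with U was 0.66 with RLE and −0.05 with no factor in control, against −2.41 and −3.15 for those with C. The grouping by first base was added after the values were seen and carries no test.

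The loading change is the difference between the log2 fold change of a treatment in AGO1-IP and that in total RNA, both from the single fit of all 18 libraries, whose scaling factors differ from those of the fits within each kind above. For HS against control it was −1.16 ± 0.48 in miR395a/d/e (unadjusted p = 0.0251, edgeR adjusted p = 0.534) and −0.76 ± 0.60 in miR395b/c/f (adjusted p = 0.795). The median of all sequences was −0.43, and 1 of 213 (0.469%) was called. With RLE factors the 2 values were −0.75 (unadjusted p = 0.175, edgeR adjusted p = 0.823) and −0.35 (adjusted p = 0.975), and the median was −0.04. DESeq2 gave −0.75 and −0.35 as well. Without 1 library miR395b/c/f ranged from −1.27 (without total RNA control replicate 1) to −0.32 (without total RNA control replicate 3). For recovery against HS it was 1.36 ± 0.48 in miR395a/d/e (unadjusted p = 0.0102, edgeR adjusted p = 0.399) and 1.14 ± 0.61 in miR395b/c/f (adjusted p = 0.595), with a median of 0.34 over all sequences. With RLE factors these were 1.07 (adjusted p = 0.708), 0.90 (adjusted p = 0.725) and 0.05. For recovery against control it was 0.20 ± 0.48 and 0.37 ± 0.60 (edgeR adjusted p = 1.00 for both). In these last 2 comparisons edgeR called 0 of 213 (0%), with 15 and 8 sequences at an unadjusted edgeR p under 0.05. DESeq2 also called 0 in both. No loading change of miR395 passed the adjusted test, and the comparisons share libraries with each other.

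**Figure D4:**
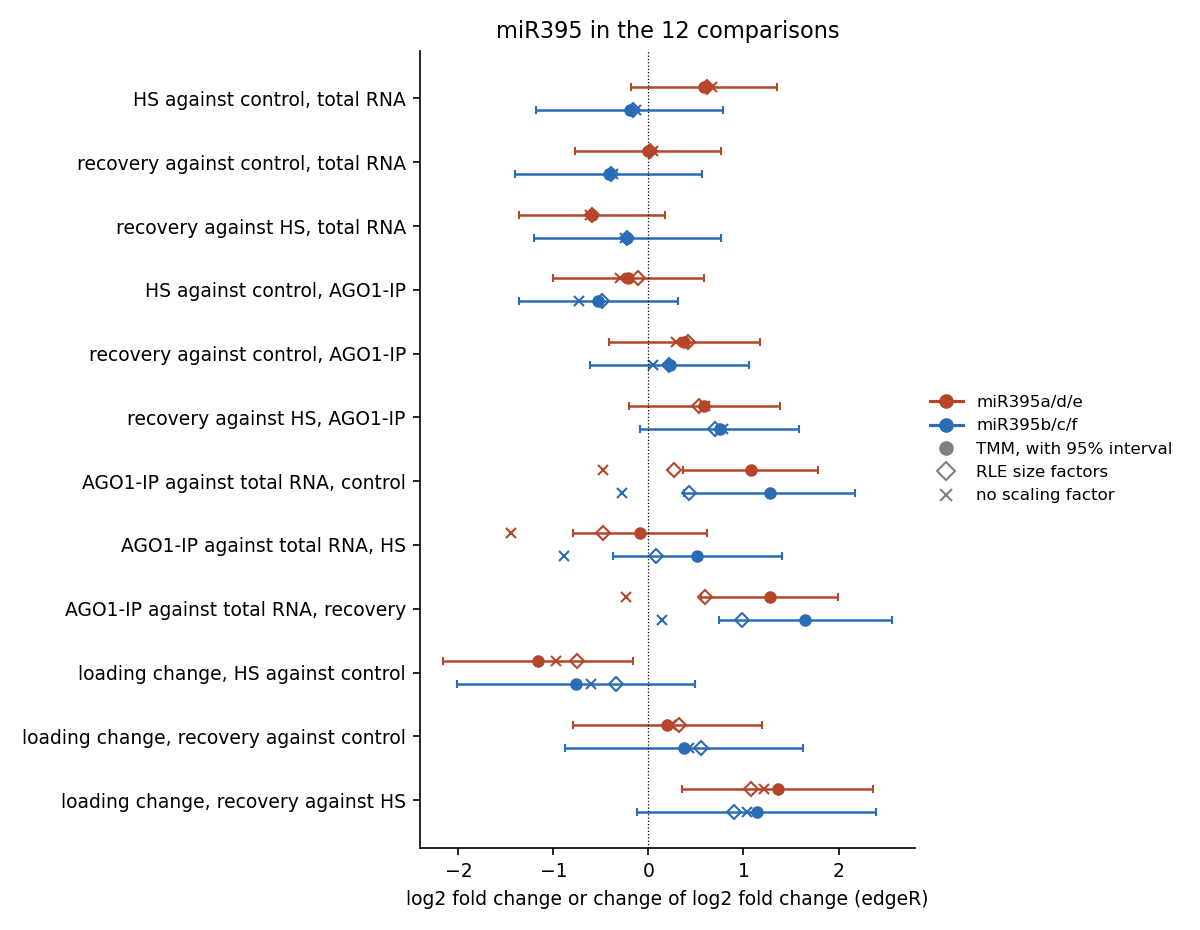
Log2 fold changes of both sequences in the 12 comparisons (filled circles, TMM with 95% interval; diamonds, RLE size factors; crosses, no scaling factor). The 3 marks lie close together between conditions and apart for AGO1-IP against total RNA, where control runs from −0.48 to 1.07 for miR395a/d/e.

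miR395 was set beside guides of other nutrient responses. The list held phosphate guides (miR399, which targets the ubiquitin-conjugating enzyme PHO2, with miR827, miR2111 and miR778), copper guides (miR398, which targets copper/zinc superoxide dismutases, with miR397, miR408 and miR857) and nitrogen guides (miR169, which targets NF-YA transcription factors, with miR826 and miR5090). Of 33 names 32 were found, and 4 phosphate, 6 copper and 4 nitrogen sequences were tested between conditions. No sequence of the list passed in any of the 6 condition comparisons or the 3 loading changes (0 of 4, 0 of 6 and 0 of 4 between conditions). Of all sequences, 0 to 2.94% were called between conditions and 0 to 0.469% in the loading changes. Lists this small therefore cannot be told from the rest by these counts.

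For HS against control in total RNA, the median log2 fold change was −0.79 over the phosphate sequences, −0.57 over the copper sequences and 0.03 over the nitrogen sequences, against 0.03 over all 182. All 6 copper sequences and 3 of 4 phosphate sequences had a value below 0, whereas miR395a/d/e was at 0.59 and miR395b/c/f at −0.19. In AGO1-IP the medians were −0.61, −0.37 and −0.23 against −0.01 over all 170, with both miR395 sequences below 0 as well. As single examples, miR399b/c-3p stood at −0.83 ± 0.72 in total RNA (edgeR adjusted p = 0.603) and −0.58 ± 0.40 in AGO1-IP (adjusted p = 0.999). miR398b/c-3p stood at −0.86 ± 0.64 (adjusted p = 0.593) and −0.66 ± 0.40 (adjusted p = 0.999). The SE is that of the fitted fold change, and neither sequence differed from 0 by this test.

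For AGO1-IP against total RNA with TMM, the copper list had 4 of 6 sequences called higher in each condition and the phosphate list 1 of 5, where 35.7, 29.6 and 33.8% of all sequences were called higher. With no factor no copper sequence was called higher (0 of 6) and 1, 2 and 1 were called lower in control, HS and recovery, where 104, 119 and 112 of all 213 were called lower. The nitrogen list had 2, 3 and 3 of 4 called lower in control, HS and recovery with TMM, against 33.8, 39.9 and 35.2% of all sequences, and 3, 3 and 4 with no factor. In control the median was 1.49 over the copper list and −1.26 over the nitrogen list with TMM, against the 1.07 and 1.27 of the miR395 sequences.

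**Figure D5:**
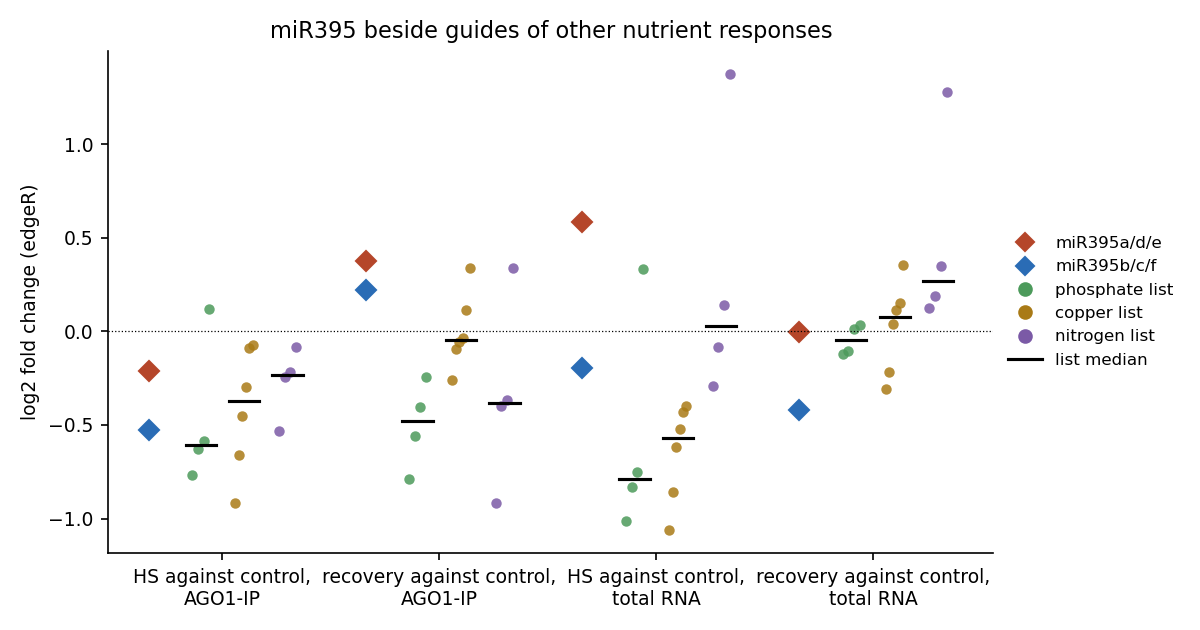
Log2 fold changes (edgeR, TMM) of miR395 (diamonds) and of phosphate, copper and nitrogen guides (points, with list medians as bars) for HS and recovery against control, AGO1-IP on the left and total RNA on the right. In HS against control in total RNA miR395a/d/e (0.59) lies above the phosphate and copper medians (−0.79 and −0.57).

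Across the 18 libraries, centred within AGO1-IP and within total RNA, the sequences most like each miR395 sum were sought among 130 sequences with a mean of at least 50 counts. For miR395a/d/e they were miR156h (Pearson r = 0.773), miR390a/b-5p (0.769), miR2111b-3p (0.764), miR395b/c/f (0.742) and miR5663-5p (0.698). For miR395b/c/f they were miR408-3p (0.800), miR399b/c-3p (0.746), miR395a/d/e (0.742), miR399a (0.735) and miR162a/b-5p (0.732). The 2 miR395 sequences, 1 base apart, thus stood at rank 4 and 3 of each other's lists. All points share the 18 libraries and their replicate numbers, so these values describe the libraries and carry no test.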

How the data were processed

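Small RNA libraries of Arabidopsis Col-0 seedlings (18 libraries, 6 groups of 3) were analysed from the table of raw read counts per mature miRNA deposited by the authors, with no normalisation. Per the labels and methods, the RealSeq v2 kit was used, adapters were trimmed with Cutadapt 2.9, reads of 18 to 34 nt were kept and Bowtie2 mapped them to TAIR10. How reads matching several loci were placed, whether mismatches were allowed and the use of strand are points not given in the sources used here, so a read with an error at base 17 could be counted under the other miR395 sequence. A deposited count table of tasiRNA positions (6242) served only for an alternative library size. All sample columns were used (0 left out). Sequences and coordinates were taken by name from the RefSeq annotation of TAIR10.1 (422 of 422 matched), since the tables carry no coordinates. Of the 422 rows, 121 share their sequence with another row, and identical sequences were summed.

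Counts were tested with edgeR 4.0.16 in R 4.3.3 (quasi-likelihood F-test, robust, TMM factors, filterByExpr, Benjamini-Hochberg over all sequences tested, threshold 0.05). Conditions were compared within the 9 libraries of each kind, and AGO1-IP against total RNA and the loading change (interaction) in all 18. Adjusted p-values come from edgeR except where DESeq2 is named. Levels are CPM of miRNA reads without factors. The log2 ratio of the 2 sums was compared by exact two-sided permutation of libraries (scipy 1.17.1). The steps were tested on simulated data. Alternatives were DESeq2 1.42.0, RLE factors, no factor, no filter, a mean of at least 50 counts, tasiRNA reads in the library size, other sets of libraries, rows as deposited, a pseudocount of 0.5 in the ratio, a replicate block and leaving out each library.

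The rule for named sequences was the 6 members as rows and sums, the nutrient lists, with values for miR399 and miR398, and the 5 sequences most like each sum. The members, lists and tests were chosen with earlier results of these data known, and a supplementary sheet with miR395 counts had been seen.

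Same-numbered libraries were checked for shared deviations from their group means. In total RNA every pair correlated above 0.1 in recovery against control (0.219 to 0.794) and recovery against HS (0.513 to 0.801). In AGO1-IP every pair did so in all 3 condition comparisons (lowest 0.128, highest 0.609). Not every pair did so in HS against control, total RNA, at 0.598, 0.0671 and 0.779 for replicates 1, 2 and 3. The same held for AGO1-IP against total RNA (lowest −0.0307). The main tests paired no libraries in any comparison, and the replicate block was run only as an alternative. The labels give the numbers and do not say what they share. The authors state that total RNA and AGO1-IP small RNA libraries came from the same biological replicates, without saying that the numbers match. AGO1-IP against total RNA and the loading change were still tested without pairs.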

Additional observations from a re-analysis of the deposited data

How the results depend on the processing

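Of 464 alternative values of the 2 miR395 sums and their ratio, 410 kept direction and side of the threshold, 22 no longer passed, 1 newly passed and 31 changed sign. For the ratio the threshold here is on the unadjusted exact p, and 2 of the 22 are its values without 1 library. In the condition comparisons of the ratio the exact p cannot go below 0.1. None of their alternatives could pass, so their unchanged side of the threshold shows no stability. No alternative of a condition comparison (192) or a loading change (120) passed, and 19 and 4 of them changed sign. miR395a/d/e in recovery against control, total RNA, was 0.015 with RLE, 0.053 with no factor, 0.031 at a mean of 50 counts, 0.075 with tasiRNA reads in the library size, 0.053 with the replicate block, 0.037 with DESeq2, 0.052 with 2 groups and 0.050 with all 18 libraries. miR395b/c/f in recovery against control, AGO1-IP, was −0.090 with rows as deposited.

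For AGO1-IP against total RNA in control, miR395a/d/e and miR395b/c/f no longer passed at 0.27 and 0.42 with RLE, 0.27 and 0.42 with DESeq2, 0.90 and 1.09 without a filter, and 0.73 and 0.88 at a mean of 50 counts, and turned to −0.48 and −0.28 with no factor. In recovery they no longer passed at 0.59 and 0.98 with RLE and 0.59 and 0.98 with DESeq2. miR395a/d/e was at 1.08 without a filter and 0.79 at a mean of 50 counts, short of passing, and turned to −0.24 with no factor, while miR395b/c/f fell short at 0.14. In HS, miR395a/d/e passed at −1.45 with no factor and turned to 0.10 with rows as deposited, and miR395b/c/f turned to −0.89 with no factor. The causes were not tested. The share of calls that were higher in AGO1-IP was 51.35, 42.57 and 48.98% in control, HS and recovery with TMM, 29.77, 34 and 31.15% with RLE and 18.11, 21.71 and 14.5% with no factor.

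Leaving out 1 library at a time, AGO1-IP against total RNA ranged from 0.85 to 1.27 in control and 0.94 to 1.29 in recovery for miR395a/d/e, and from 0.97 to 1.75 and 1.17 to 1.72 for miR395b/c/f. miR395a/d/e lost its call in control without total RNA replicate 3 (edgeR adjusted p = 0.0992) or AGO1-IP replicate 3 (0.0687), and in recovery without total RNA replicate 3 (0.0712). miR395b/c/f lost it in control without total RNA replicate 3 (0.111) or AGO1-IP replicate 1 (0.0845). In HS miR395a/d/e ranged from −0.16 to 0.15 and miR395b/c/f from 0.24 to 0.93. Of the condition comparisons, miR395a/d/e ranged from −0.26 to 0.046 in HS against control, AGO1-IP, and from −0.25 to 0.15 in recovery against control, total RNA. miR395b/c/f ranged from −0.72 to 0.22 in HS against control, from −0.74 to 8.7e-05 in recovery against control and from −0.45 to 0.23 in recovery against HS, all in total RNA, and from −0.23 to 0.42 in recovery against control, AGO1-IP. The loading change of recovery against control ranged from −0.074 to 0.30 and from −0.18 to 0.55. The ratio ranged from −0.47 to −0.30 for AGO1-IP against total RNA (exact permutation p from 0.00625 to 0.0548), and in AGO1-IP from 0.11 to 0.60 for HS against control, −0.053 to 0.44 for recovery against control and −0.33 to 0.068 for recovery against HS.

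Counts over all sequences also moved by more than 1.5 times with other settings. For HS against control, total RNA, edgeR called 0 in place of 1 with all 18 libraries, tasiRNA reads in the library size, 2 groups or rows as deposited. In AGO1-IP, recovery against control had 2 calls, against 4 with DESeq2, 7 without a filter and 1 with RLE, no factor, a mean of 50 counts or rows as deposited, and recovery against HS had 3, against 6 without a filter and 1 with 2 groups or rows as deposited. At a mean of 50 counts AGO1-IP against total RNA had 85, 92 and 82 calls, against 148, 148 and 147. The loading change of HS against control had 0 with DESeq2, RLE, no factor or the block, against 1.

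The replicate block changed no call of miR395 (miR395a/d/e, HS against control, total RNA, edgeR adjusted p = 0.159 with the block). Over all sequences it raised the calls from 1 to 21 (HS against control), 0 to 2 (recovery against control) and 0 to 5 (recovery against HS) in total RNA, and from 5 to 6, 2 to 5 and 3 to 9 in AGO1-IP. Every library of the 9 of a kind correlated best with its own number (9 of 9 in both kinds), a hint from the data only. For the ratio in AGO1-IP against total RNA, sign flips over the 9 numbered pairs gave an unadjusted exact p of 0.00391. Same-numbered libraries did not all correlate above 0.1 in that comparison, and the 9 pairs share 3 numbers.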
